A study of Homo sapiens with 4 samples.

Results

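The 6 genes described here encode chemokines that attract T cells and NK cells: CXCL9, CXCL10, CXCL11, CCL5, CX3CL1 and CXCL16. They were chosen by name, as the array spots other than controls whose gene name is one of the 6. No measured value entered that rule, but earlier results of these data were known when the genes were chosen. All 6 were found, on 8 probes with 1 spot each per array, among 27193 gene names on the array, and all 6 were among the 22022 genes tested. The study compared MCF10A.B2 cells labelled control, and described there as Pak1 wild type (2 arrays), with cells of that line that carry a PAK1 shRNA (2 arrays). MCF10A.B2 derives from the human mammary epithelial line MCF10A and holds a chimeric form of ErbB2 (Her2) that is switched on by the dimerizer AP1510. All 4 samples had 3 h without serum and then 15 min of AP1510 before total RNA was taken, so a group with the receptor at rest was not among them. The labels name no group with another shRNA, so an effect of carrying an shRNA and one of lower PAK1 cannot be told apart. Series text speaks of a Tet inducible shRNA and of cells from tumors, and the labels give neither an inducer nor the origin of the replicates. The p-values below therefore measure only the spread between these samples, which may be technical.

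Chemokines are small secreted or membrane-anchored proteins that draw leukocytes along a gradient by binding G protein-coupled receptors. CXCL9, CXCL10 and CXCL11 share the receptor CXCR3 of activated T cells and NK cells and are classical products of interferon-treated epithelium. CCL5 (RANTES) binds CCR1 and CCR3 among other receptors, while CXCL16 and CX3CL1 (fractalkine) are made as membrane proteins that can be shed by proteases and bind CXCR6 and CX3CR1. Interferons act on such genes through STAT2, IRF9 and other interferon regulatory factors, and NF-kB binds several of the same promoters.

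PAK1, the target of the shRNA, was lower in the PAK1 shRNA cells, at normalized log2 signals of 10.44 and 10.52 against 11.19 and 11.27 in control cells (log2 fold change -0.75, standard error 0.08, adjusted p = 0.000182, limma). Its signal in PAK1 shRNA cells was 59.5% of that in control cells. The normalized log2 signal is the spot intensity after background correction and quantile normalization. Well above background means that the scanner software called the spot brighter than its background, which held for 78.9% to 83.1% of the probes per array. With these 2 arrays against 2, 62.8% of all genes tested passed an adjusted p under 0.05, and the median log2 fold change of all genes was 0.02. An exact two-sided permutation test of 1 gene cannot go below 0.333 in this design, and the number of arrays limits the precision. All arrays lay on 1 slide.

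Of the 6 chemokines, 5 were higher in PAK1 shRNA cells (adjusted p under 0.05, limma) and 1, CX3CL1, did not pass the test. The same call was made for 31.0% of all genes tested, while 31.8% were lower. The median log2 fold change of the 6 was 5.72. For all 6, both PAK1 shRNA arrays lay above both control arrays, as they did for 42.1% of all genes tested, and they lay below both for 39.6%. The range was wide: CXCL10 had the largest fitted rise of all 22022 genes, CXCL11 ranked 3, CCL5 10 and CXCL9 151, whereas CXCL16 ranked 2497 and CX3CL1 7505. In bulk RNA, more cells that express a gene and more of its RNA per cell cannot be told apart.

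**Figure D1:**
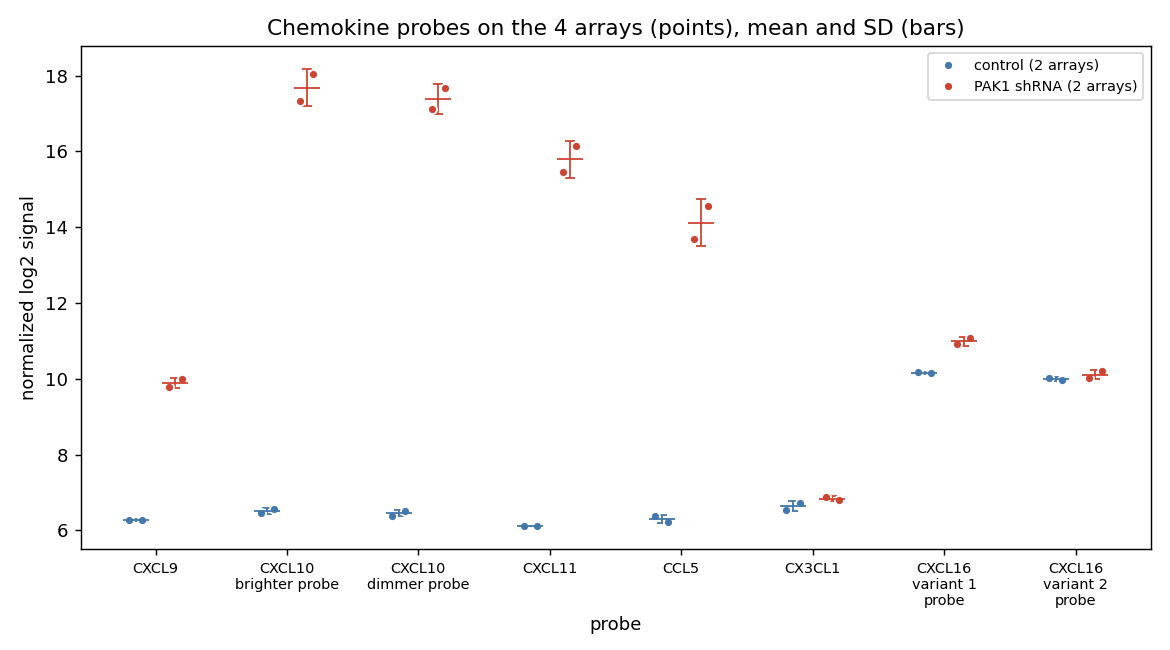
Normalized log2 signal (y axis) of the 8 probes of the 6 chemokines (x axis), with 1 point per array, control in blue and PAK1 shRNA in red; horizontal bars are means and whiskers are SD (n = 2). CXCL10 rises from 6.45 and 6.57 to 17.33 and 18.03, and the points of CX3CL1 stay between 6.54 and 6.88; levels of different probes are not comparable.

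**Figure D2:**
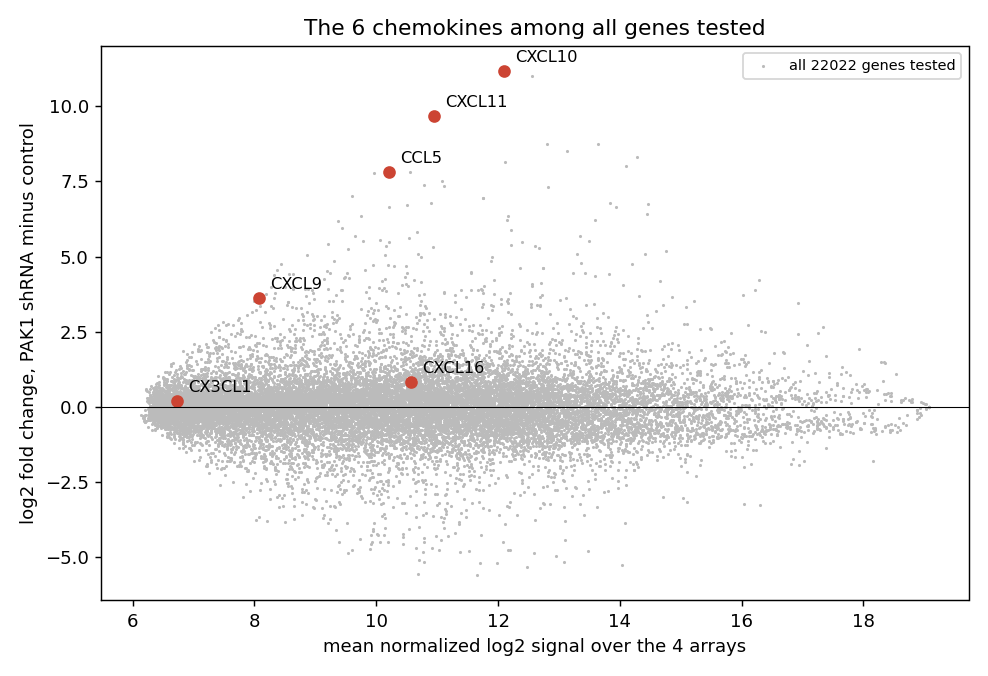
Log2 fold change, PAK1 shRNA minus control (y axis), against the mean normalized log2 signal over the 4 arrays (x axis) for all 22022 genes tested (grey), with the 6 chemokines in red. CXCL10 is the highest point at 11.17, and CXCL16 at 0.84 and CX3CL1 at 0.20 lie within the band of most genes.

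The CXCR3 ligands CXCL9, CXCL10 and CXCL11 all rose. CXCL10 (IP-10), the ligand by which an interferon response is often read in epithelium, had normalized log2 signals of 6.45 and 6.57 in the control samples and 17.33 and 18.03 in the PAK1 shRNA samples. Both control arrays were low, both PAK1 shRNA arrays were high, and the groups did not overlap. This is a log2 fold change of 11.17 (standard error 0.21, adjusted p = 3.22e-07, limma), or 2306-fold. The control spots of CXCL10 were called well above background on both arrays, with scanned intensities of 74.7 and 74.1 over local backgrounds of 39 and 42, so that the control level was measured but dim. A second probe of the gene read 6.39 and 6.51 in control cells and 17.10 and 17.66 in PAK1 shRNA cells, a log2 fold change of 10.93 (standard error 0.17). The changes of the 2 CXCL10 probes differed by 0.24 on the log2 scale (standard error 0.08, adjusted p = 0.0619, limma on the difference of the 2 brightest probes in 4508 genes), which did not pass the threshold.

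CXCL11 (I-TAC), the CXCR3 ligand of highest affinity, read 6.11 and 6.11 in the control samples and 15.44 and 16.13 in the PAK1 shRNA samples. Neither control spot was well above background, and both PAK1 shRNA spots were. The rise is therefore a bound, which holds for the reported setting only. There CXCL11 was higher by at least 817-fold with the PAK1 shRNA (adjusted p = 4.38e-07, limma), from group means of 6.11 and 15.78. With the background correction fitted on all spots the bound was 244-fold. Bounds in this text set the mean of the bright group against the dim group's own signal or the lowest signal well above background on each array. The higher of these was used. Here it was the gene's own signal, so the bound equals the fitted change.

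CXCL9 (MIG), which is best known as a target of interferon gamma, read 6.28 and 6.26 in the control samples and 9.78 and 9.98 in the PAK1 shRNA samples. The groups did not overlap, and the gene rose by 3.61 on the log2 scale (standard error 0.09, adjusted p = 6.86e-07, limma), or 12.2-fold, and 1 of the 2 control spots was well above background. The fitted changes of CXCL9, CXCL10 and CXCL11 moved by over 1.5 times with the background correction and the signal used. With the correction fitted on all spots they were 2.28, 9.62 and 7.93, and with Agilent's processed signal scaled to its 75th percentile 6.06, 13.50 and 13.06, on the log2 scale and still past the threshold. The bound of CXCL11 ran from 244-fold to 4890-fold over the same settings.

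CXCL9, CXCL10 and CXCL11 lie close together on chromosome 4 and are read from the minus strand. Their probes lie at chr4:76922796-76922855 (CXCL9), chr4:76942934-76942993 and chr4:76943520-76943579 (CXCL10, the first being the brighter probe) and chr4:76955615-76955674 (CXCL11), in the hg19 coordinates of the scanner files. Exons and introns under the probes were not annotated here. The 250 bases before the RefSeq start of each gene (GRCh38.p14, minus strand) are shown because interferon and NF-kB elements are known for these promoters. Capitals mark every match, on either strand, to the interferon-stimulated response element (ISRE, searched as GAAA, any 2 bases and GAAA), the gamma-activated site (GAS, searched as TTCNNNGAA) or the NF-kB motif. The windows lie at chr4:76007510-76007759 for CXCL9, chr4:76023498-76023747 for CXCL10 and chr4:76036071-76036320 for CXCL11.
CXCL9: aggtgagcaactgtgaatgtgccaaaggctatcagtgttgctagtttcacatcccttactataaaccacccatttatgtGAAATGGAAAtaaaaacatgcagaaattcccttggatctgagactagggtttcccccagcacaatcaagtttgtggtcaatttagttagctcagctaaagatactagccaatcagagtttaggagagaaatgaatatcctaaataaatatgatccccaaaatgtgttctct
CXCL10: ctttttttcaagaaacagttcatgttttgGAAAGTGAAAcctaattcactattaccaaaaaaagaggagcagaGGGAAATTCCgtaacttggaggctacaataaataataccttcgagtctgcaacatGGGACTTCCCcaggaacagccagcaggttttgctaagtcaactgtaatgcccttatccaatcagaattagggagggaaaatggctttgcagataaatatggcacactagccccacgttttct
CXCL11: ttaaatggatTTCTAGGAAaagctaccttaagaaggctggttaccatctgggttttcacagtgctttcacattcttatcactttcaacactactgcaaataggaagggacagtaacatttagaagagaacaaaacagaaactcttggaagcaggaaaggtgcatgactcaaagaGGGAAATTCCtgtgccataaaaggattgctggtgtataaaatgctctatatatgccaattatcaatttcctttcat

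The window of CXCL9 held 1 ISRE, 171 to 162 bases before the start. That of CXCL10 held 1 ISRE at 221 to 212 bases and 2 NF-kB motifs at 177 to 168 and 122 to 113 bases before the start. That of CXCL11 held 1 GAS at 240 to 232 bases and 1 NF-kB motif at 76 to 67 bases before the start. No marked motifs overlap each other. Over 35116 RefSeq promoter windows of the same length, 3.02% held an ISRE, 6.57% a GAS and 9.96% an NF-kB motif, and 1.72% held 2 or more NF-kB motifs. A match is a description of the letters, and binding was not measured. The promoter table gave a sequence for 3 of the 6 genes.

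The genes on either side of this cluster moved in both directions, by at most 1.42 on the log2 scale. In RefSeq order, NAAA fell (log2 fold change -1.14) and SDAD1 rose (0.77) before CXCL9, and NUP54 fell (-0.25) and SCARB2 rose (1.42) after CXCL11, all with an adjusted p under 0.05 from limma. FAM47E, next after SCARB2, had -0.09 and did not pass. ART3, which lies between CXCL9 and CXCL10, was not well above background on both arrays of either group and was not tested.

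CCL5, a ligand of CCR1 and CCR3, read 6.37 and 6.22 in the control samples and 13.69 and 14.56 in the PAK1 shRNA samples. The groups did not overlap, and 1 of the 2 control spots was well above background. This is a log2 fold change of 7.83 (standard error 0.26, adjusted p = 1.69e-06, limma), or 227-fold. It was 6.19 with the background correction fitted on all spots and 10.35 with the processed signal scaled to its 75th percentile. Its probe lies at chr17:34199332-34199391 on the minus strand (hg19). Among its neighbours in RefSeq order, TAF15 fell (-1.11) and HEATR9, listed as C17orf66 on the array, rose (1.40) on one side, and RDM1 fell (-1.42) on the other.

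CXCL16, the transmembrane ligand of CXCR6, is read by 2 probes that gave different answers. The probe annotated to transcript variant 1, at chr17:4637560-4637619 on the minus strand (hg19), read 10.17 and 10.14 in the control samples and 10.91 and 11.08 in the PAK1 shRNA samples. It stands for the gene, which rose by 0.84 on the log2 scale (standard error 0.09, adjusted p = 0.000176, limma), or 1.79-fold. The probe annotated to transcript variant 2, at chr17:4637807-4637866, read 10.02 and 9.96 in the control samples and 10.02 and 10.20 in the PAK1 shRNA samples, a log2 fold change of 0.12 (standard error 0.09, adjusted p = 0.288 over all probes, limma). The variant 1 probe minus the variant 2 probe within an array was 0.14 and 0.18 in control cells and 0.89 and 0.88 in PAK1 shRNA cells. The groups did not overlap in this difference, and the changes of the probes differed by 0.72 on the log2 scale (standard error 0.07, adjusted p = 0.000892, limma over 4508 genes with 2 or more probes). The same test passed for 44.1% of those genes, and it was added after the values were seen. Before normalization the variant 1 spot read 1538 and 1175 in control cells and 1576 and 1760 in PAK1 shRNA cells, and the variant 2 spot read 1390 and 1032 against 864 and 957. The median spot intensity was 501 and 384 in the control samples and 326 and 319 in the PAK1 shRNA samples. The rise of the variant 1 probe is therefore one relative to the rest of the array. Which transcripts each probe reads was not tested.

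CX3CL1 (fractalkine), the other membrane-anchored ligand and the only one with a CX3C motif, read 6.54 and 6.73 in the control samples and 6.88 and 6.79 in the PAK1 shRNA samples. All 4 spots were well above background but dim, with scanned intensities of 88.7, 89.3, 91.8 and 88.8, and the groups did not overlap but nearly touched. This is a log2 fold change of 0.20 (standard error 0.09, 95% confidence interval -0.02 to 0.42, adjusted p = 0.0988, limma). It passed the threshold with the processed signal scaled to its 75th percentile (0.68), with median centring (0.47) and without control replicate 2 (0.30). Its probe lies at chr16:57418025-57418084 on the plus strand (hg19). In RefSeq order the gene stands between CCL22, which was not tested, and CCL17, which had a log2 fold change of 0.26 (adjusted p = 0.0554, limma).

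**Figure D3:**
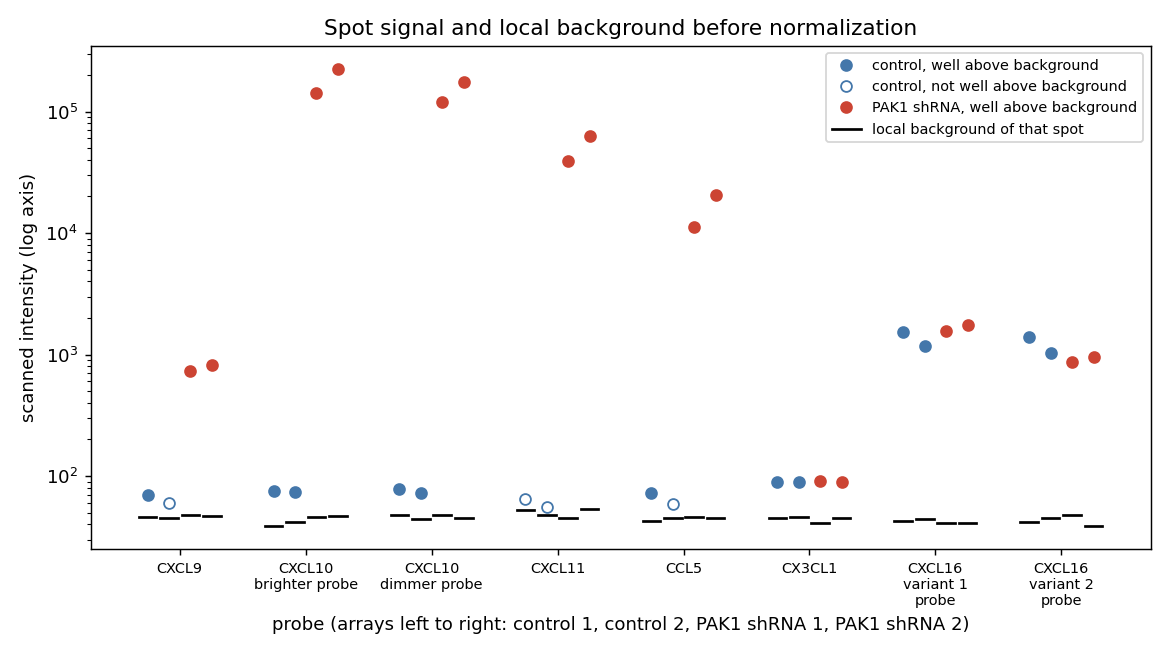
Scanned spot intensity on a log axis (y) of the 8 probes (x) on each of the 4 arrays, before any correction; filled points were called well above background, open points were not, and short black lines are the local background of the same spot. Control spots of CXCL11 at 64.7 and 55.2 lie close to their local backgrounds of 53 and 47.5, and the PAK1 shRNA spots of CXCL10 reach 224760.

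The rise of CXCL9, CXCL10, CXCL11 and CCL5 was visible in the spots as scanned, before any correction. The CXCL11 spot read 64.7 and 55.2 in control cells and 38826 and 62350 in PAK1 shRNA cells. The CCL5 spot read 71.9 and 58.4 against 11212 and 20516, and the CXCL9 spot 69.3 and 59.5 against 735 and 826. No spot of the 6 genes was saturated or flagged as an outlier. For CXCL10 and CXCL11 on both PAK1 shRNA arrays and for CCL5 on PAK1 shRNA 2, the scanner software had taken the value from the scan at lower gain and scaled it up, which was the case on none of the control arrays.

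CCL5, CXCL10 and CXCL11, which had the 3 largest rises among the 6, also differed most between the 2 PAK1 shRNA arrays. PAK1 shRNA 2 was above PAK1 shRNA 1 by 0.87 for CCL5, 0.70 for CXCL10 and 0.69 for CXCL11 on the log2 scale, but by 0.20 for CXCL9 and 0.17 for CXCL16. CX3CL1 was lower by 0.08 there. Over all genes tested the median of this difference was -0.01, and over the 239 genes that rose by at least 3 on the log2 scale it was 0.25, with 221 of them higher on PAK1 shRNA 2. All of these gaps were small beside the difference between the groups for CXCL9, CXCL10, CXCL11 and CCL5.

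Receptors of these chemokines were tested in 7 of 9 cases, and 4 were higher, 1 lower and 2 not past the threshold, with a median log2 fold change of 0.37. Over all genes tested, 31.0% were higher and 31.8% lower. CXCR3, the receptor of CXCL9, CXCL10 and CXCL11, read 9.44 and 9.40 in control cells and 10.57 and 10.81 in PAK1 shRNA cells (log2 fold change 1.27, standard error 0.10, adjusted p = 5.00e-05, limma). Among the receptors of CCL5, CCR1 was at least 5.63-fold higher and CCR3 at least 1.88-fold higher, both with control spots not well above background. These bounds hold for the reported setting only. The log2 fold changes of CCR1 and CCR3 were 2.49 and 0.91 there, and 1.40 and 0.47 with the background correction fitted on all spots. ACKR3, listed as CXCR7 on the array, is a scavenging receptor that also binds CXCL11, and it fell by 2.53 on the log2 scale, from 9.53 and 9.23 to 6.86 and 6.83. The scavenger ACKR2 rose by 0.37, a call that was lost without PAK1 shRNA replicate 1 (0.29, adjusted p = 0.0523, limma), and ACKR1 had -0.13 and did not pass. CX3CR1 and CXCR6, the receptors of CX3CL1 and CXCL16, were not well above background on any array.

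The sheddases that release CXCL16 and CX3CL1 from the cell surface were both higher, as were 31.0% of all genes tested. ADAM10 read 11.43 and 11.30 in control cells and 12.90 and 12.93 in PAK1 shRNA cells, a log2 fold change of 1.55 (standard error 0.08, adjusted p = 9.55e-06, limma). ADAM17 rose by 1.13 (standard error 0.10). DPP4, which trims several of these chemokines at the amino terminus, was not well above background on any array.

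All 8 transcription factors of the list of those known to bind or drive these promoters were higher, with a median log2 fold change of 3.07. The share of all genes tested that were higher was 31.0%. IRF7, which amplifies interferon production, read 11.34 and 11.10 in control cells and 17.57 and 17.74 in PAK1 shRNA cells (log2 fold change 6.43, standard error 0.11, adjusted p = 2.98e-07, limma). STAT2 and IRF9, which act together downstream of the interferon receptors, rose by 3.72 and 3.17. IRF1, which interferon gamma induces, rose by 2.98. The NF-kB subunits NFKB1 and RELA rose by 1.00 and 0.88, and IRF3, which is regulated mainly by phosphorylation, rose by 0.63. These are RNA levels, and factor activity was not measured.

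Of the interferons and their receptors, 11 of 13 were tested, and 9 were higher, 1 lower and 1 not past the threshold, with a median of 0.82. Among all genes tested the shares were 31.0% higher and 31.8% lower. The type III interferons IFNL1 (IL29 on the array) and IFNL2 (IL28A) rose by 7.82 and 8.16 on the log2 scale. IFNL3 (IL28B) was at least 128-fold higher in the reported setting, with control spots not well above background. This bound equals the fitted change and holds for that setting only. The change of IFNL3 was smaller with the background correction fitted on all spots. IFNL2 and IFNL3 are close copies whose probes may not tell them apart. IFNB1, a type I interferon, read 6.35 and 6.34 in control cells and 11.07 and 11.71 in PAK1 shRNA cells, with 1 of 2 control spots well above background. This is a log2 fold change of 5.04 (standard error 0.19, adjusted p = 2.94e-06, limma). IFNG, the type II interferon that names CXCL9, was not well above background on any array. IFNE rose by 1.12, and IFNK was well above background on 1 control array and was not tested. Of the receptor chains, IFNAR2 rose by 0.82, IFNGR2 by 0.72, IFNLR1 by 0.51 and IL10RB by 0.38, while IFNAR1 fell by 0.57 and IFNGR1 had 0.02 and did not pass. The rise of IFNLR1 was lost with the probe of the lowest mean (0.02) and with the mean over its probes (0.17), and that of IL10RB without control replicate 2 (0.24), PAK1 shRNA replicate 1 (0.36) or PAK1 shRNA replicate 2 (0.38).

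Other chemokine ligands were tested in 27 of 38 cases, 37 of which are on the array, and 17 were higher, 1 lower and 9 not past the threshold, with a median of 0.82. Over all genes tested, 31.0% were higher and 31.8% lower. With the unpaired test of the methods in place of limma, 8 were higher. The 2 largest rises were those of CCL3 (MIP-1 alpha), another CCR1 ligand, and CCL20, the ligand of CCR6. CCL3 read 6.59 and 6.57 in control cells and 12.19 and 13.63 in PAK1 shRNA cells (log2 fold change 6.34, standard error 0.41, adjusted p = 2.33e-05, limma), and had 7.11 without PAK1 shRNA replicate 1 and 5.68 without PAK1 shRNA replicate 2. CCL20 rose by 5.34 (standard error 0.18). CXCL14, a chemokine of resting epithelium, was the only one to fall, from 11.61 and 11.38 to 9.09 and 8.72 (log2 fold change -2.59, standard error 0.14, adjusted p = 1.19e-05, limma).

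The line was checked against markers of the cells it is labelled as and of leukocytes, which also make and respond to these chemokines. All 8 basal mammary epithelial markers were well above background on all 4 arrays. Of these, 2 were higher, 5 lower and 1 not past the threshold, with KRT5 at -1.14 and TP63 at -1.13. Among T and NK cell markers 2 of 8 tested were higher and 6 did not pass the threshold, with a median of 0.16. Beside each marker list here, 31.0% of all genes tested were higher and 31.8% lower. The leukocyte antigen PTPRC (CD45) had 0.13 (adjusted p = 0.221, limma). The higher T and NK cell markers were GNLY, at least 1.71-fold in the reported setting, and CD2 with 0.35. CD3G was not well above background on any array, but 7 of the 8 tested, PTPRC among them, were on all 4. So were all 5 myeloid, all 4 endothelial and 3 of 4 fibroblast markers tested. Detection alone therefore does not set the basal markers apart. The summed level of the T and NK cell markers on the linear scale was 18608 and 17322 in the control samples and 21812 and 19226 in the PAK1 shRNA samples. That of the 6 chemokines was 1559 and 1550 against 225499 and 366884. Each sum comes mostly from its brightest probe. For T and NK cell markers this was CD4, with log2 signals of 14.09 and 13.98 in control and 14.32 and 14.12 in PAK1 shRNA samples. For the chemokines in PAK1 shRNA samples it was CXCL10, and for the myeloid markers CD14. Levels of different probes are not comparable, so the sums do not rank the lists. Myeloid markers were higher in 4 of 5 tested, with a median of 0.46 and CD14 at 1.32, and their sum was 21230 and 20165 against 48092 and 51311. Fibroblast markers were higher in 3 of 4 and lower in 1, with LUM at 1.79 and PDGFRB at -0.58, and endothelial markers higher in 1 of 4, lower in 1 and not past the threshold in 2, with PECAM1 at -1.56 and VWF at 0.37. The part of the myeloid and fibroblast markers in the rise of the chemokines was not tested.

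Genes whose 4 values, each taken from its own mean over the arrays, lay closest to those of a chemokine were looked up. The search covered the 20737 genes outside the 6 that were well above background on each of the 4 arrays. The 6 chemokines themselves and genes at background in control cells, such as IFNL3, could therefore not appear. The likeness is the root mean square difference over 4 arrays on the log2 scale. CXCL10 was closest to RSAD2 (0.17), the antiviral protein viperin, followed at 1.22 and 1.23 by OASL and IFIT2. CXCL11 was closest to OASL (0.48), IFIT2 (0.50) and IFI27 (0.60). CCL5 was closest to IFNL1 (0.08), IFNL2 (0.19) and MX2 (0.27), and CXCL9 to SRGN, AIM2 and DNER (0.05 each). CXCL16 was closest to FSIP1, MBD1 and KDELC1 (0.01 each), and CX3CL1 to UBXN6, LOC100129223 and a transcript without a gene symbol, for changes of a size that many genes had.

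**Figure D4:**
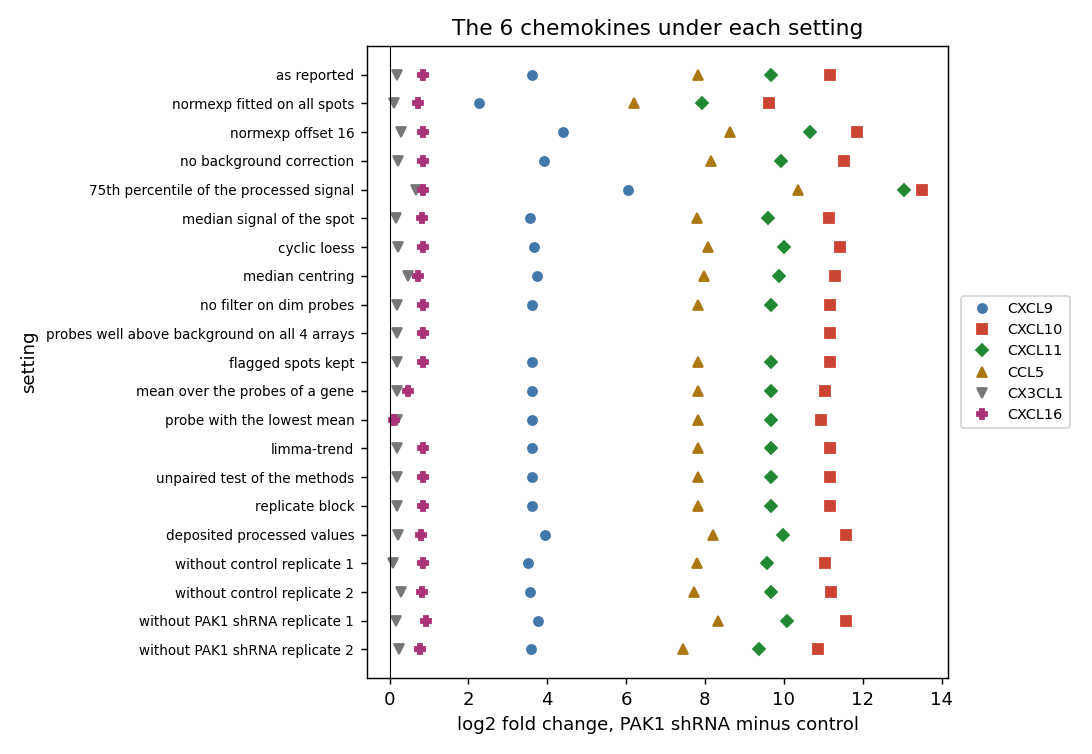
Log2 fold change, PAK1 shRNA minus control (x axis), of the 6 chemokines under the reported setting and each alternative (y axis), with 1 symbol per gene. CXCL9, CXCL10, CXCL11 and CCL5 move together with the background correction and the signal used, and stay at 2.28 or above wherever they were tested, and CXCL16 runs from 0.12 to 0.93 and CX3CL1 from 0.10 to 0.68.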

How the data were processed

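RNA from 2 control and 2 PAK1 shRNA samples was hybridized in 1 colour to Agilent arrays, which were grouped by their labels. The authors deposited scanner intensity values per spot from Agilent Feature Extraction 9.5 (submitters' notes), not normalized between arrays, and a table of log2 values of the same arrays, used as an alternative. Mean intensities were background corrected with normexp (offset 50), with its parameters fitted without spots of flagged local background, 618 and 651 on the control arrays. The fitted background mean of the control arrays was -9.2 and -12.1 that way, and -666 and -740 on all spots. On these arrays 8 and 18 spots had a very high local background, and their own part in this was not tested. After quantile normalization, flagged spots were dropped and repeated spots averaged by probe. A probe entered if both arrays of 1 group or more had it well above background, and each gene was represented by its brightest probe (mean over all arrays). The linear model and eBayes of limma 3.58.1 (R 4.3.3) were used, with Benjamini-Hochberg adjustment over 22022 genes, at 0.05.

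The chemokines and gene lists were chosen with earlier results of these data known. Genes named were the 6 chemokines, PAK1, the 2 largest rises and falls of a list, list genes with a direct role, and the 3 genes of likest pattern; neighbours in RefSeq (GRCh38.p14) order and some marker values were added. Older symbols on the array were matched by hand (IL29 for IFNL1). In simulated data 200 of 22022 genes were changed. Of these, 93.2% of genes changed by 1 and 18.6% of genes changed by 0.5 on the log2 scale were recovered, and 6 unchanged genes were called. In the measured data 62.8% of genes passed the threshold, so these rates may not carry over to this comparison. Alternatives covered correction, signal, normalization, filter, flags, probe rule, test, replicate block and each array left out. With 1 slide, no slide block was run. No protein sequence was used here, and single values of some list genes are not reported here.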

Additional observations from a re-analysis of the deposited data

How the results depend on the processing

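CXCL9, CXCL10, CXCL11 and CCL5 stayed higher and past the threshold in every setting in which they were tested. With only probes well above background on all 4 arrays, CXCL9, CXCL11 and CCL5 were not tested, which left 2 of the 6 chemokines higher. CX3CL1 passed the threshold with the processed signal scaled to its 75th percentile (0.68) and with median centring (0.47), which moved the median of all genes to 0.12 and 0.14. Leaving out 1 array gave CX3CL1 0.10 to 0.30 (adjusted p 0.0432 to 0.382, limma), past the threshold without control replicate 2, and leaving out 1 array gave CXCL16 0.76 to 0.93. CXCL16 did not pass with the probe of the lowest mean (0.12, adjusted p = 0.299, limma), and its adjusted p ran from 5.79e-05 to that value. An unpaired t-test called 4369 genes higher and 4763 lower, against 6823 and 7009 with limma, which the paper names for its arrays. Without adjustment the unpaired t-test called 12118. The causes were not tested.

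Changes of sign occurred in ACKR1 (0.016 with median centring) and IFNGR1 (-0.028 with median centring, -0.034 without control replicate 2 and -0.062 without PAK1 shRNA replicate 1), neither past the threshold. T and NK cell markers were higher in 1 to 6 cases over the settings, against 2 as reported. Receptors were higher in 2 cases with probes well above background on all 4 arrays. Myeloid markers were higher in 2 cases without control replicate 2, where 2 interferon genes were lower, and in 2 with the unpaired test. That test did not call ACKR2, IRF3, IFNLR1 or IL10RB.

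Control and PAK1 shRNA arrays share replicate numbers, but the deviations of equal numbers had a correlation of 0.0088 over 27517 probes, so equal numbers were not taken as pairs. A replicate block called 6975 genes higher and 7070 lower and changed no call among the 6 chemokines. CXCL9 moved from 2.28 to 6.06 and CCL5 from 6.19 to 10.35 with the background correction and the signal used, against 3.50 to 3.78 and 7.44 to 8.33 when 1 array was left out, and their control spots lay near background.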
